A study of Vitis vinifera with 6 samples.

Results

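The genes described here are 144 grapevine (Vitis vinifera) genes that were well detected on every array and lower in leaves overexpressing the transcription factor NAC61. They were chosen by their measured values: a spot named after a VIT_ locus had to be well above background on all 6 arrays, all 3 OX.NAC61 values had to lie below all 3 control values, and the OX.NAC61 mean had to lie at least 1.5 below the control mean in log2 units. Loci named VIT_11s0052g, VIT_18s0001g and VIT_16s0039g were left out of the choice. Of 34369 features outside the control spots, 29798 carried a VIT_ name, 20918 of these were eligible by detection and name, and 144 met both conditions on the values, which is 0.688% of the eligible genes. Because the direction and the size of the difference chose these genes, both are given as descriptions and no test is attached to any of the 144.

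Young leaves of cv. Thompson Seedless plantlets grown in vitro were compared 7 days after vacuum infiltration with Agrobacterium tumefaciens strain C58C1, on plants 6 weeks old at infiltration by the sample labels. The OX.NAC61 plants carried NAC61 behind the constitutive 35S promoter, and the control plants received the same bacterial strain with a vector holding a non-coding sequence, so that both groups were infiltrated. Each group had 3 arrays, 1 plant each, hybridised in a single colour (Cy3). The overexpression was transient, and the 3 OX.NAC61 plants were those with the highest NAC61 transcript among the plants infiltrated, which limits the group to strong expressers.

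NAC proteins are plant transcription factors, and members of the family take part in leaf senescence, fruit ripening and responses to water deficit. A gene that is lower in such an experiment can be lower in every cell or be carried by fewer cells, and in whole leaf RNA fewer cells of a type and less RNA per cell cannot be told apart. Leaves depend on antenna and reaction centre proteins for light capture, on cutin and waxes for their surface, on pectin and hemicellulose in their walls, and on ion and water channels for turgor, and each of these functions has annotated representatives among the 144 genes.

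All levels below are log2 processed signal minus the 75th percentile of the same array, so 0 is the 75th percentile itself. NAC61 itself (VIT_08s0007g07640) measured -2.48, -2.21 and -2.44 in control plants 1 to 3, against -1.15, -0.66 and -0.48 in OX.NAC61 plants 1 to 3. The groups did not overlap, and the mean was higher by 1.62 in OX.NAC61 (SE 0.21, n = 3 and 3, limma adjusted p = 0.0286). This call was lost with a block for the slide on record (adjusted p = 0.104), without control replicate 2 (adjusted p = 0.126) and without control replicate 3 (adjusted p = 0.105). OX.NAC61 replicates 1 and 3 have the same slide and array position on record but different scan days. The slide may thus be wrong for 1 of them, which limits every fit blocked by slide. With the scan day as a block, the difference was 1.23. Such a fit leaves OX.NAC61 replicate 1 alone against the controls, because the other OX.NAC61 arrays were scanned on a day without controls. Whether the probe reads the transgene, the native gene or both was not tested.

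Scanning took place on 2 days, with all controls and OX.NAC61 replicate 1 on the first and the remaining OX.NAC61 arrays on the second. Between 24501 and 28121 features an array were well above background, and the 75th percentile of the processed signal was 889 to 1615 on the control arrays and 1775 to 2577 on the OX.NAC61 arrays, so the OX.NAC61 arrays were the brighter ones before scaling. All 4 photosynthetic leaf markers were well above background on every array, among them CAB-1 (VIT_07s0005g02220), a light-harvesting protein of photosystem II, with levels of 4.74 to 6.94. All 4 were below control on every OX.NAC61 array, by means of -1.82 to -0.71, beside 17.6% of the eligible genes. For 2 of them, which are among the 144 genes, the choice required this. The summed level of all 4 was 6.69 to 7.11 on the control and 4.94 to 5.83 on the OX.NAC61 arrays. CAB-1, which the choice required to be lower, made up most of this sum, with 6.46 to 6.94 and 4.74 to 5.60. The 2 markers outside the 144 genes differed by -0.74 and -0.71. None of the 6 dividing cell markers had groups that did not overlap (differences -0.26 to 0.86). Of 5 senescing leaf markers 2 were above and 2 below control on every array (-0.54 to 1.64), beside 1997 of 20918 eligible genes above. Of the 2 below, VIT_18s0001g15520 had a gap of only 0.0016 between the groups. The summed level of the dividing cell markers was -1.30 to -0.39 on the control and -1.72 to 0.29 on the OX.NAC61 arrays, and that of the senescing leaf markers was 2.27 to 2.62 and 2.57 to 3.55. The part of cell type or leaf stage in the values below was not tested.

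Among the 144 genes the difference of the group means ran from -3.93 to -1.501, with a median of -1.85, beside a median of -0.05 over all 20918 eligible genes. On a linear scale the OX.NAC61 means were 2.83 to 15.3 times lower. The difference was at most -2 for 53 genes and at most -3 for 1. Across the eligible genes, 17.6% had all 3 OX.NAC61 values below all 3 control values, from which the size of the difference then chose. The limma fit, which took in the 27051 features detected above background on 3 or more arrays, called 106 of the 144 genes lower, beside 3.75% of all features, and nothing is read from this count since the fit used the same contrast. Another 18 eligible genes had a difference of at most -1.5 with overlapping groups, and 22 further VIT_ genes met the conditions on values but were well above background only on the control arrays and some or none of the OX.NAC61 arrays.

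The genes nearest to the bound show how it falls within a continuum. Just inside it lay VIT_03s0038g00950, annotated as the small auxin-responsive protein SAUR9 (-1.501), VIT_13s0019g03040, an indole-3-acetate glucosyltransferase (-1.503), and VIT_07s0197g00040, which has no annotation in the sources used (-1.504). Just outside it lay VIT_11s0118g00060 (-1.497), VIT_11s0016g00330 (-1.494) and VIT_12s0055g00810 (-1.488).

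The choice also bore on brightness, since a gene had to be lower in OX.NAC61 and still be well above background there. The 144 genes had control levels near those of the eligible genes. Their median control level was -0.78, beside -0.84 for the eligible genes, and 49 of them (34.03%) had a control mean above the 75th percentile of the array, beside 37.9% of the eligible genes. In OX.NAC61 leaves 18 genes still had a mean above it. No spot of the 144 was saturated or marked as an outlier on any array.

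**Figure D1:**
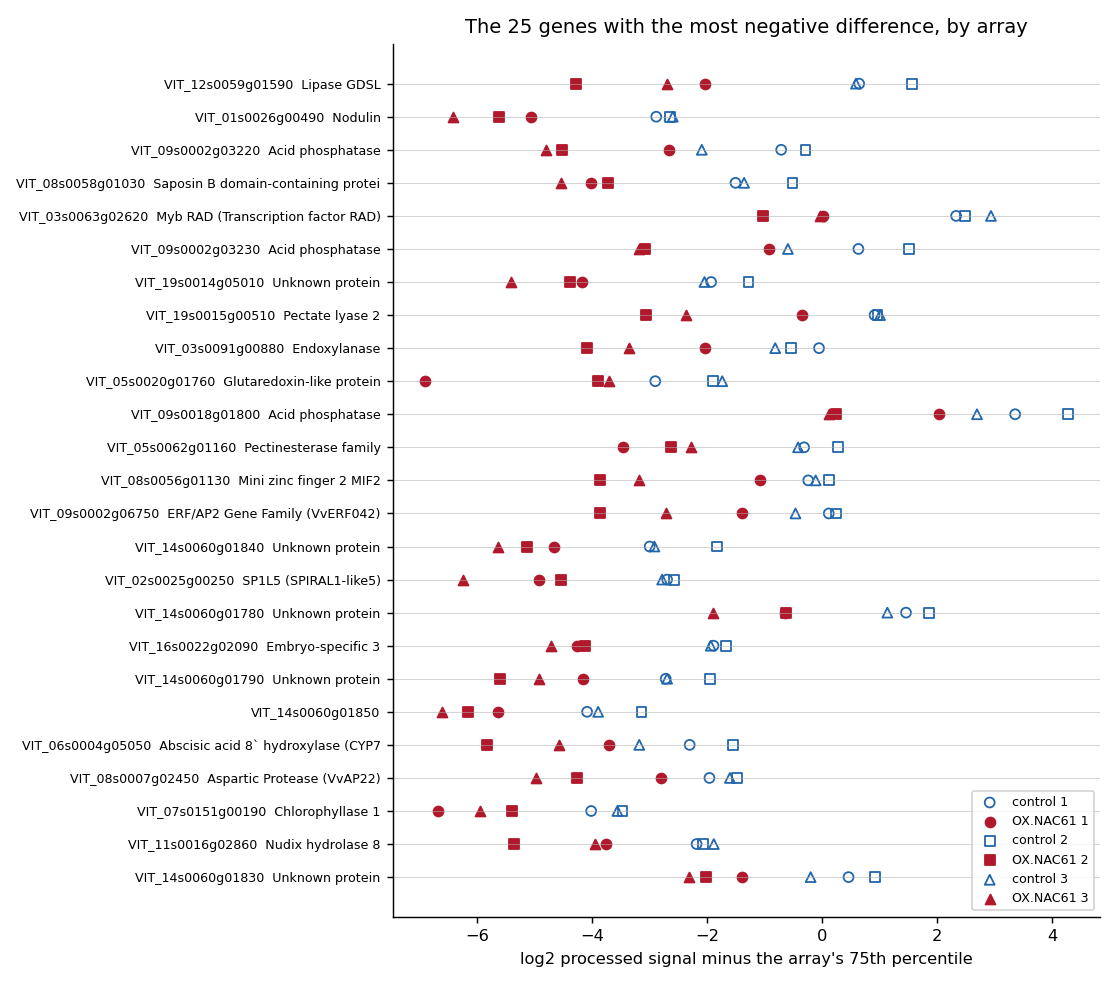
Levels of the 25 genes with the most negative difference (log2 processed signal minus the array's 75th percentile, horizontal axis), 1 row a gene; open blue symbols are the 3 control arrays, filled red symbols the 3 OX.NAC61 arrays, and the shape gives the replicate number. Red and blue symbols do not overlap in any row because this was a condition of the choice, and the reader should see how far the red symbols spread, as for pectate lyase 2 with -0.36, -3.07 and -2.36.

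The OX.NAC61 arrays differed in how low these genes were. The median difference from the control mean was -1.41 on OX.NAC61 replicate 1, -2.01 on replicate 2 and -2.32 on replicate 3, while the corresponding medians over the eligible genes were -0.04, -0.07 and -0.05. Replicate 1 was the highest of the 3 OX.NAC61 arrays for 99 of the 144 genes (68.8%), beside 37.9% of the eligible genes, and replicate 3 was the lowest for 80. A value at least 1.5 below the control mean was reached by 55 genes on replicate 1, 118 on replicate 2 and 137 on replicate 3, and on all 3 arrays by 39.

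Replicate 1 was the OX.NAC61 array scanned on the day of the controls, and NAC61 itself was lowest on it among the 3 OX.NAC61 plants. Within that scan day the median difference of the 144 genes was therefore -1.41, with 1 OX.NAC61 array. The scan day and the level of NAC61 cannot be told apart with these 3 arrays. The same choice made on the 4 arrays of that day alone would have held 118 genes, of which 55 were among the 144. Without replicate 1 the choice would have held 316 genes, of which 137 were among the 144, and without control replicate 1 it would have held 217, of which 131 were.

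**Figure D2:**
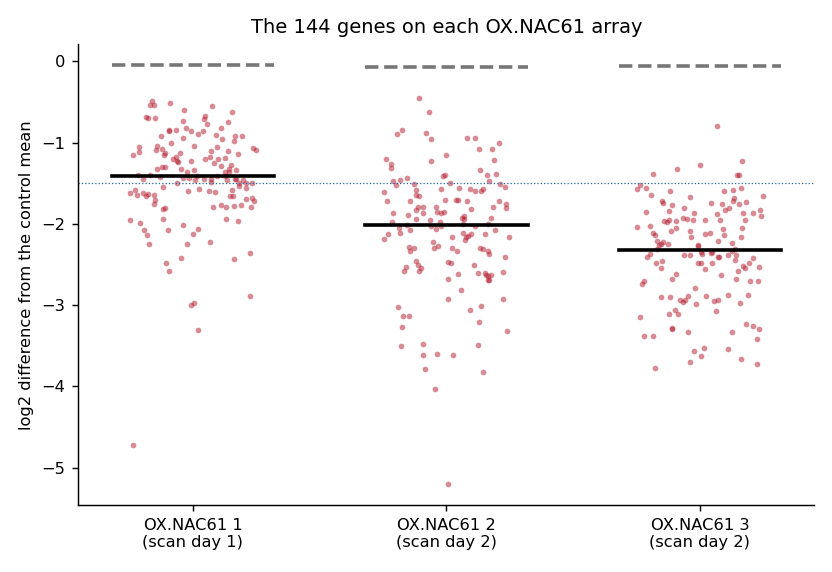
Difference of each of the 144 genes from its control mean (log2, vertical axis) on the 3 OX.NAC61 arrays; each red point is 1 gene, the black bar the median of the 144 and the dashed grey bar the median of all eligible genes. The dotted line marks -1.5, and the medians of the 144 lie at -1.41, -2.01 and -2.32.

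Spread within the groups was uneven as well. The SD over 3 arrays had a median of 0.32 in the controls and 0.71 in OX.NAC61, beside 0.18 and 0.23 over the eligible genes, and it was larger in OX.NAC61 for 120 of the 144 genes (83.3%, beside 62.5% of the eligible genes). The choice used these same values, and 1 very low OX.NAC61 array can carry the mean past the bound. The eligible genes are therefore not a matched comparison for the spread. The glutaredoxin-like VIT_05s0020g01760 had the widest spread, with -2.90, -1.89 and -1.74 in control and -6.90, -3.89 and -3.70 in OX.NAC61 leaves. Here replicate 1 was the lowest array, against the usual order. The gap between the lowest control and the highest OX.NAC61 value was over 1 for 60 genes and under 0.1 for 5, and it was smallest for VIT_01s0011g03810 (0.02), whose levels were -0.20, 0.71 and 0.39 in control and -0.21, -3.18 and -1.03 in OX.NAC61 leaves. For VIT_07s0005g05400, annotated as ABI3, and VIT_03s0063g01500 the gap was 0.03 each.

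For 10 genes every OX.NAC61 array was at least 2 below the control mean. They were the GDSL lipase VIT_12s0059g01590, the nodulin VIT_01s0026g00490, the saposin B domain protein VIT_08s0058g01030, the MYB-related factor RAD (VIT_03s0063g02620), VIT_19s0014g05010 of unknown function, the pectinesterase VIT_05s0062g01160, 2 loci of an unknown-protein block described below (VIT_14s0060g01780 and VIT_14s0060g01840), the embryo-specific protein VIT_16s0022g02090 and the calcium pump ACA12 (VIT_14s0030g02090). ACA12, which moves calcium out of the cytosol, had the levels -1.86, -1.54 and -1.96 in control and -3.85, -4.08 and -4.34 in OX.NAC61 leaves. VIT_16s0022g02090 had -1.89, -1.67 and -1.94 against -4.26, -4.13 and -4.72. In both the arrays of a group lay within 0.6 of each other. In the authors' deposited processed values the differences of the 10 genes ran from -3.06 to -0.85.

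Names were given for 94 of the 144 genes by the study's own gene lists, 16 were listed there as unknown or without a hit, and 34 had no entry. For 77 genes the annotation came only from lists of genes changed on these same arrays, so the named genes are not a neutral sample, and the roles below were assembled after the values were known. They take in 68 genes, of which 8 are the unknown-protein block and were grouped by location alone.

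**Figure D3:**
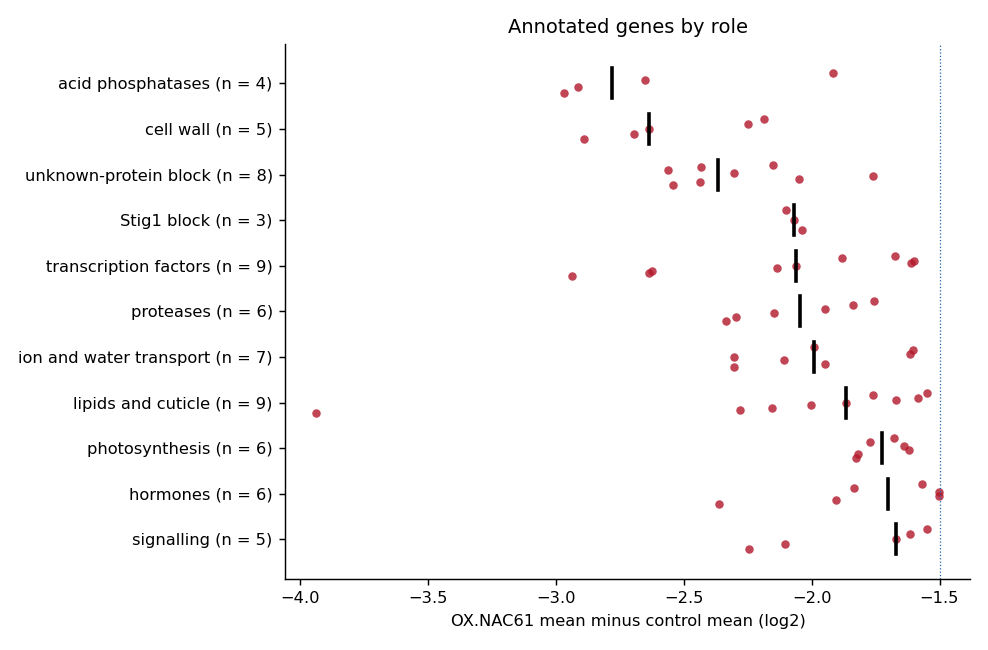
Differences of the OX.NAC61 mean from the control mean (log2, horizontal axis) for the 68 genes placed in a role or, for 8 of them, in the unknown-protein block. Each red point is 1 gene and the black bar the median of its row. All points lie left of the dotted line at -1.5 by the choice of the genes, and the row medians run from -2.78 for 4 acid phosphatases to -1.67 for 5 signalling proteins.

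Lipid and cuticle genes held the most negative difference of all. VIT_12s0059g01590 belongs to the GDSL lipases, serine hydrolases that act on lipid esters and, in some members, on cutin. Its levels were 0.65, 1.56 and 0.59 in control and -2.04, -4.27 and -2.69 in OX.NAC61 leaves, a difference of -3.93, or 15.3 times lower. The nearest values of the groups were 2.63 apart. The other GDSL lipases were VIT_18s0086g00220 (-2.28) and VIT_10s0003g02110 (-2.16).

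Enzymes that build or order the cutin layer in Arabidopsis were also among the genes. The acyltransferase GPAT8 (VIT_08s0007g02000) had 2.18, 2.07 and 2.06 in control and 1.47, -0.53 and 0.35 in OX.NAC61 leaves. The hydrolase BODYGUARD1 (VIT_02s0025g02620) had 2.25, 2.33 and 1.22 against 1.11, -0.05 and -0.02, and here control replicate 3 came within 0.11 of OX.NAC61 replicate 1. The fatty acid hydroxylase CYP86A2 (VIT_02s0025g03320) differed by -1.76. A class 3 lipase (VIT_05s0077g00490), a ceramidase (VIT_08s0007g01680) and a phosphatidylglycerol phospholipase C (VIT_06s0009g03350) had differences of -2.003, -1.86 and -1.55. Outside the 144 genes, 8 further GDSL lipases were tested by limma, of which 0 were called lower and 1 higher.

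Cell wall genes had a median difference of -2.64. Pectate lyase 2 (VIT_19s0015g00510), which cleaves the pectin backbone, was even among the controls with 0.91, 0.96 and 1.01, and had -0.36, -3.07 and -2.36 in OX.NAC61 leaves. The endoxylanase VIT_03s0091g00880, which cuts xylan, had -0.05, -0.54 and -0.82 against -2.04, -4.08 and -3.36. The pectinesterase VIT_05s0062g01160, which removes methyl esters from pectin, had -0.31, 0.28 and -0.42 against -3.46, -2.63 and -2.27. Replicate 1 was the highest OX.NAC61 array for the first 2 of these enzymes and the lowest for the third. A xyloglucanase inhibitor (VIT_14s0128g00210) differed by -2.25. Proline-rich protein 4 (VIT_03s0038g01830), a structural wall protein, had 5.62, 5.65 and 5.44 against 4.46, 2.56 and 3.12. Among 23 other tested loci with cell wall words in their annotation, limma called 2 lower and 6 higher, with a median difference of 0.01. The 6 higher calls were all among 7 loci annotated only through lists of changed genes (median 3.004), and the 16 annotated elsewhere held 1 lower and 0 higher calls (median -0.08).

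Acid phosphatases release phosphate from organic esters, and 4 were among the 144 genes. The neighbours VIT_09s0002g03220 and VIT_09s0002g03230 had -0.71, -0.29 and -2.09 and 0.63, 1.52 and -0.59 in control leaves. In OX.NAC61 leaves the first had -2.66, -4.53 and -4.81 and the second -0.92, -3.09 and -3.18. VIT_09s0018g01800 had 3.36, 4.28 and 2.69 against 2.03, 0.24 and 0.12. In all 3 the lowest control array was replicate 3 and the highest OX.NAC61 array replicate 1, and the groups came within 0.32 to 0.66 of each other. The purple acid phosphatase PAP16 (VIT_08s0007g05970) differed by -1.92 with tighter controls (-0.92 ± 0.18, SD, n = 3). A list of all loci annotated as acid phosphatase, made after these values were seen, held 16 others, of which limma called 1 lower and 0 higher (median difference 0.05).

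Proteases included 4 aspartic proteases. VIT_08s0007g02450 (AP22) had -1.96, -1.48 and -1.60 in control and -2.81, -4.27 and -4.97 in OX.NAC61 leaves. AP10 (VIT_05s0020g00950), VIT_18s0041g01780 and AP34 (VIT_14s0060g00330) differed by -2.29, -2.15 and -1.95. All 4 were lowest on OX.NAC61 replicate 3. A subtilisin-type serine protease (VIT_09s0002g01030) and the cysteine protease RCR3 (VIT_10s0003g01100), whose tomato counterpart is a target of fungal effectors, differed by -1.84 and -1.75. Among 50 other tested protease loci limma called 4 lower and 7 higher, of which the 41 annotated outside the lists of changed genes held 0 and 4.

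Genes of photosynthesis had a median difference of -1.72 over 6 loci. The paired loci VIT_00s0181g00180 and VIT_00s0181g00200, both annotated as the antenna protein LHCB3, had 3.82, 3.86 and 3.69 and 3.65, 3.63 and 3.66 in control leaves. In OX.NAC61 leaves they had 2.87, 1.72 and 1.31 and 2.73, 1.36 and 1.40. The controls of each locus lay within 0.2 of each other, and replicate 1 was the highest OX.NAC61 array in both. CAB-1 had 6.46, 6.65 and 6.94 against 5.60, 4.74 and 4.85.

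PSAD (VIT_07s0151g01000), the ferredoxin-docking subunit of photosystem I, differed by -1.64, and VIT_00s0187g00140 by -1.77. The latter is annotated as psbC, which plants encode in the plastid genome, so its probe may not be separate from a plastid transcript. The chloroplast carbonic anhydrase VIT_14s0066g01210, which interconverts carbon dioxide and bicarbonate, was the evenest of the group with 1.73, 2.03 and 1.92 against 0.39, 0.09 and 0.16. Chlorophyllase 1 (VIT_07s0151g00190), which removes the phytol tail of chlorophyll, had -4.02, -3.47 and -3.56 against -6.68, -5.39 and -5.95.

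Beyond the 144 genes, 51 tested loci had photosynthesis words in their annotation, and limma called 38 of them lower and 0 higher (median difference -0.96, range -1.30 to 0.17). Of these, 40 were annotated only through lists of genes changed on these arrays and held all 38 calls, while the 11 annotated elsewhere held 0 calls in either direction, with a median of -0.26. Of 9 tested loci with chlorophyll words, 7 were called lower. Of these calls, 6 were among the 6 loci annotated only through changed lists, and the 3 annotated elsewhere held 1 (median -0.33). Rubisco activase (VIT_09s0018g01270), a leaf marker outside the 144, had 1.28, 1.35 and 1.25 against 0.66, 0.38 and 0.61 (difference -0.74, SE 0.14, limma adjusted p = 0.0522). This call was lost without any single control array (adjusted p = 0.116 to 0.213) and without OX.NAC61 replicate 2 or 3 (adjusted p = 0.123 and 0.148). It was also lost with a block for slide (adjusted p = 0.163) or for replicate number (adjusted p = 0.12). With a block for scan day its difference was -0.64, from OX.NAC61 replicate 1 alone.

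Regulators numbered 9 annotated transcription factors. RAD, named after a MYB-related protein of snapdragon flowers, had 2.33, 2.49 and 2.94 in control and 0.01, -1.03 and -0.04 in OX.NAC61 leaves. MIF2 (VIT_08s0056g01130), a mini zinc finger protein, had -0.24, 0.12 and -0.11 against -1.09, -3.87 and -3.19, and ERF042 (VIT_09s0002g06750) had 0.12, 0.24 and -0.46 against -1.40, -3.86 and -2.72. In both the lower values of OX.NAC61 came from replicates 2 and 3. A further MYB family gene (VIT_04s0023g01910) differed by -2.13, WRINKLED1 (VIT_13s0047g00340), an activator of fatty acid synthesis genes in Arabidopsis, by -2.06, and the lateral organ boundaries protein VIT_01s0011g03530 by -1.88.

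SHOOT MERISTEMLESS (VIT_12s0059g01190), a homeobox factor that maintains the shoot meristem in Arabidopsis, had -0.64, -0.32 and -0.59 against -1.74, -1.75 and -2.91. The other 2 meristem markers, VIT_04s0008g06130 and VIT_11s0118g00800, both annotated as KNAT2, differed by 0.22 and -0.14 with overlapping groups. ERF017 (VIT_18s0089g01030) was even within groups, with 0.06, -0.36 and 0.02 against -1.46, -1.66 and -1.96. ABI3, a mediator of abscisic acid responses in seeds, was scattered in both groups, with -3.40, -2.80 and -1.69 against -4.85, -4.64 and -3.42. Among 210 other tested loci with transcription factor words limma called 11 lower and 25 higher, of which the 186 annotated outside the lists of changed genes held 4 and 13.

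Hormone genes included 2 abscisic acid 8'-hydroxylases, the enzymes that break down abscisic acid. CYP707A2 (VIT_06s0004g05050) had -2.30, -1.56 and -3.18 in control and -3.71, -5.83 and -4.58 in OX.NAC61 leaves, and CYP707A1 (VIT_02s0087g00710) had -0.33, 0.14 and 1.48 against -1.53, -1.75 and -1.15. Control replicate 3 was the lowest control for the first and the highest for the second. Of 4 other tested loci with this annotation limma called 0 in either direction, and their differences were -0.48 to 0.75. Isochorismate synthase 1 (VIT_17s0000g05690), on the route to salicylic acid, differed by -1.83 and BAS1 (VIT_11s0016g04810), which inactivates brassinosteroids in Arabidopsis, by -1.57.

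SAUR9 had 2.87, 2.82 and 2.24 against 0.98, 1.19 and 1.25. It was the only one of the 144 among 35 measured loci of its neighbourhood, VIT_03s0038g00900 to VIT_03s0038g01300, where limma called 11 of 33 other tested loci lower and 0 higher (median -0.74). Over the whole annotation 25 other tested loci had auxin words, 8 called lower and 2 higher. All 8 were among 9 loci annotated only through lists of changed genes, and the 16 annotated elsewhere held 0 lower and 2 higher calls (median -0.02).

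Signalling proteins were AHP4 (VIT_09s0002g03520), which passes phosphate in cytokinin signalling, with 0.68, 0.30 and 0.00 against -1.74, -2.70 and -1.31, and 4 kinases. HT1 (VIT_17s0000g08240), a kinase that keeps stomata responsive to carbon dioxide in Arabidopsis, had -0.23, 0.34 and 0.12 against -1.72, -1.26 and -1.65. The values of each group were close together. The receptor-like kinase RKL1 (VIT_04s0008g01220), a Clavata-like kinase (VIT_19s0015g01120) and a MAP3K-like kinase (VIT_14s0083g01130) differed by -2.10, -1.67 and -1.55. The guard cell marker FAMA (VIT_05s0029g00050) differed by -0.25 with overlapping groups. Of 9 other tested loci with cytokinin words limma called 0 in either direction.

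Ion and water transport genes numbered 7. The sodium and potassium transporter HKT1 (VIT_11s0103g00050) had -1.13, -1.35 and -1.52 against -3.10, -2.93 and -4.87. The exchangers CAX7 (VIT_08s0056g01480), CAX3 (VIT_06s0004g06570) and CHX19 (VIT_05s0020g01150) differed by -2.11, -1.95 and -1.62. The tonoplast water channel TIP4;1 (VIT_04s0008g03550) differed by -1.99 and copper transporter 2 (VIT_03s0110g00360) by -1.61. All 7 were lowest on OX.NAC61 replicate 3, CHX19 by less than 0.01. With the EF-hand protein VIT_19s0014g03970 (-1.85), 3 of the 144 genes carried calcium words, and among 62 other tested loci of that list limma called 3 lower and 12 higher, of which the 50 annotated outside the lists of changed genes held 1 and 4.

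Some of the genes lay near each other. When genes on 1 scaffold were linked if the step to the next locus number was at most 100, 43 of the 144 fell into 16 runs. How often eligible genes fall into such runs was not counted. By chromosome, as the first digits of the locus name give it, the share of eligible genes ranged from 0.244% on chromosome 13 to 1.22% on chromosome 9, chromosome 14 held the most genes (15), and 12 lay on unanchored sequence. Runs of 4 were VIT_01s0026g00490 to VIT_01s0026g00630, which opens with the nodulin gene, and VIT_09s0002g03050 to VIT_09s0002g03230, which ends with the 2 acid phosphatases. The nodulin gene had -2.89, -2.64 and -2.60 against -5.06, -5.63 and -6.43, the second most negative difference of all (-2.998). In the authors' deposited processed values its difference was -0.94.

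The longest run, of 8, lay at VIT_14s0060g01780 to VIT_14s0060g01870, where 7 loci were listed as unknown proteins and VIT_14s0060g01850 had no annotation. Their control means ran from -3.71 to 1.48 and their differences from -2.56 to -1.76. VIT_14s0060g01780 had 1.46, 1.86 and 1.14 against -0.65, -0.63 and -1.89, and VIT_14s0060g01840, with the most negative difference, had -3.0, -1.84 and -2.92 against -4.66, -5.13 and -5.64. Control replicate 2 was the highest control in both. VIT_14s0060g01820, with the least negative, had -1.52, -0.98 and -2.13 against -2.67, -3.76 and -3.48. In the authors' deposited processed values the differences of the run of 8 ranged from -2.31 for VIT_14s0060g01780 to -0.57 for VIT_14s0060g01850.

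The edges of this run were sharp on 1 side. The 7 measured loci from VIT_14s0060g01700 to VIT_14s0060g01760 differed by -0.54 to 0.82. Within the run, VIT_14s0060g01800 missed the choice because it was well above background on only 5 arrays, and its difference was -1.95 (SE 0.45, limma adjusted p = 0.0816). This call was lost with a block for slide (adjusted p = 0.199) or for replicate number (adjusted p = 0.118). It was also lost without any single array other than OX.NAC61 replicate 1 (adjusted p = 0.145 to 0.268). With a block for scan day its difference was -0.9975, from OX.NAC61 replicate 1 alone. Its difference was -1.03 after normexp with marked backgrounds replaced and -0.15 in the deposited table (adjusted p = 0.278). VIT_14s0060g01860 and the 3 loci from VIT_14s0060g01880 to VIT_14s0060g01900 were not well above background on any array. Probe sequences were not used here, so whether probes of similar loci, such as these, the LHCB3 pair or the Stig1 genes below, share targets was not tested, and their separate values are uncertain to that extent.

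**Figure D4:**
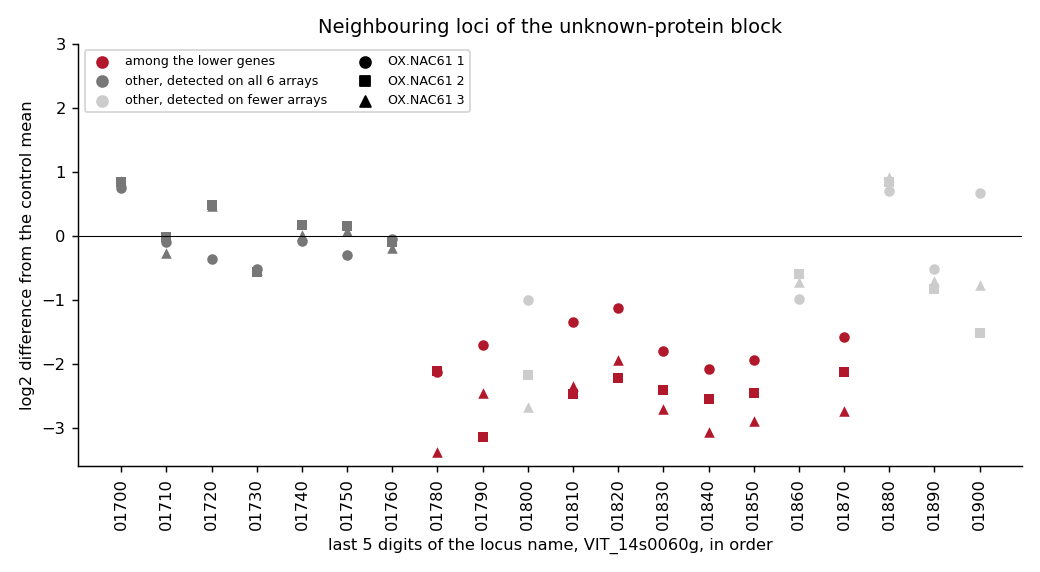
Difference from the control mean (log2, vertical axis) on each OX.NAC61 array for 20 measured loci in order along VIT_14s0060g; red symbols are the 8 genes of the run, dark grey other loci well above background on all 6 arrays and light grey those on fewer, and the shape gives the OX.NAC61 replicate. The 8 genes of the run follow 7 dark grey loci with differences of -0.54 to 0.82.

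The run of 3 at VIT_10s0116g01030, VIT_10s0116g01040 and VIT_10s0116g01140 was annotated as Stig1, a family of small secreted cysteine-rich proteins named after the stigma. VIT_10s0116g01030 had 1.5, 1.94 and 0.96 against 0.28, -1.13 and -0.86. The 3 genes differed by -2.04, -2.07 and -2.10 and each had control replicate 2 as the highest control and OX.NAC61 replicate 1 as the highest of its group. In the interval VIT_10s0116g01000 to VIT_10s0116g01200, 9 other loci were tested, 0 called lower and 1 higher, VIT_10s0116g01090, which was not well above background on any control array. That call was lost without control replicate 2 (adjusted p = 0.122) and after normexp with marked backgrounds replaced (adjusted p = 0.199), and its direction turned after normexp on the recorded backgrounds (-0.69). With scan day blocked its difference was 4.65, from OX.NAC61 replicate 1 alone.

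Some of the other lists held none of the 144 genes although limma called several of their loci lower. In the tropinone reductase neighbourhood VIT_06s0004g05300 to VIT_06s0004g05450, 9 of 12 tested loci were lower and 0 higher (differences -1.22 to -0.33). In the desaturase neighbourhood VIT_05s0094g00500 to VIT_05s0094g00900, 8 of 29 were lower and 0 higher. With the desaturase annotation 15 of 21 were lower and 0 higher, 10 of these calls among loci annotated only through changed lists. In starch metabolism 4 of 8 were lower and 0 higher, 3 of these calls among loci annotated only through changed lists and 1 among the 5 annotated elsewhere. Every such difference was smaller than the bound of 1.5. Over all lists limma called 106 of 551 tested loci outside the 144 lower and 55 higher, beside 3.75% lower and 3.09% higher over all features. Loci annotated only through lists of genes changed on these same arrays held 88 of the lower and 30 of the higher calls, so their share is no independent evidence. The 358 annotated elsewhere held 13 lower and 23 higher calls, with a median difference of 0.06. These calls rested on the full set of arrays. Without control replicate 2, 0 of the lower calls on these lists were left, while 7 features in all were still called lower and 3688 had an unadjusted p under 0.05 in either direction. A block for scan day leaves OX.NAC61 replicate 1 alone against the controls, so no count of calls is given for it.

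None of the 144 genes was on the list of co-expression partners of NAC61 that the study drew from other data, which held 688 of the 20918 eligible genes (3.29%).

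The authors' processed values differed most from these at low control levels. All 144 were in the deposited table of processed values, where 136 kept all OX.NAC61 values below all control values and 48 would have met the whole rule. The median difference there was -1.19. For the 49 genes with a control mean above 0 the median was -1.88 in scaled processed signal and -1.69 in the deposited values, and for the 54 genes at or below -2 it was -1.79 and -0.54. Chlorophyllase 1 is an example, at -2.32 and -0.45, while RAD stood at -2.94 and -2.73. CAB-1, with a control mean of 6.68, was nonetheless at -1.62 and -1.035, and at -1.16 after quantile normalisation.

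**Figure D5:**
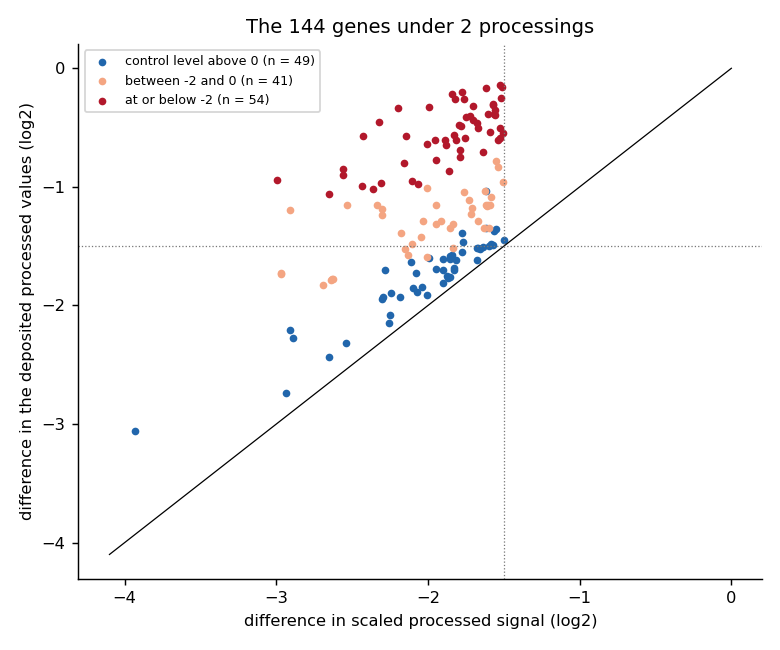
Difference of the group means (log2) in scaled processed signal (horizontal axis) and in the deposited processed values (vertical axis) for each of the 144 genes, coloured by control level; the solid line marks equal values and the dotted lines -1.5. Most genes with a control level above 0 lie near the line (medians -1.88 and -1.69), and those at or below -2 lie well above it (medians -1.79 and -0.54).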

How the data were processed

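Single-colour (Cy3) Agilent arrays of 6 leaf samples were analysed, 3 control and 3 OX.NAC61. Per the file headers, the deposited scanner tables hold processed signal and median signal intensity with local background intensity per spot, made with Feature Extraction 10.5.1.1. The authors' deposited processed table holds log2 values made with limma, whose background correction and further steps are not given in the sources used here, and it served as an alternative only. The labels give the plant age at infiltration as 6 weeks, and the study's methods give a younger age.

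Processed intensity was log2 transformed and centred on the 75th percentile of each array over non-control spots. The 144 genes, their roles and all lists were chosen with earlier results of these data known. Named genes were NAC61, the 25 most negative differences, families or neighbourhoods with at least 3 of the genes, the 3 nearest to the bound on each side, the 3 smallest gaps and the 3 largest SDs. Other named genes were chosen after their values were seen. Other loci were tested with limma 3.58.1 (R 4.3.3; lmFit, eBayes, Benjamini-Hochberg adjusted p below 0.1 and fold above 1.5, no covariate; spots marked as outliers left out), the thresholds of the study's methods, on the 27051 features detected above background on 3 or more arrays, and the fit was tested on simulated data. Array number limits the precision. The p-values rest on the spread between arrays of a group, 1 plant each, which also takes in the recorded slides and, in OX.NAC61, the 2 scan days. Alternatives were other scalings, normexp (offset 50), the deposited table, blocks, filters and leaving out each array. Locus names matched no entry of the reference table, so no coordinates or sequences are given. The authors' own fold changes and p-values were not used.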

Additional observations from a re-analysis of the deposited data

How the results depend on the processing

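The median difference of the 144 genes was -1.85 as reported, -1.41 when blocked by scan day, -1.19 in the deposited table and -2.15 to -1.65 when each array was left out in turn. The scan day block leaves OX.NAC61 replicate 1 alone against the controls, so only differences are given for it. The choice held 48 genes in the deposited table, 508 at a bound of -1, 53 at -2 and 116 to 316 when each array was left out, with 217 without control replicate 1 and 316 without OX.NAC61 replicate 1. Limma called 1015 features lower as reported and 4452 after normexp with marked backgrounds replaced (84.4% of its calls, beside 54.8%, with the median of all features at -0.21). It called 627 lower in the deposited table and 275 at adjusted p below 0.05. In the fit blocked by recorded slide, which is uncertain for OX.NAC61 replicates 1 and 3, it called 156 lower. Leaving out an array gave 7 to 2185 such calls: 449, 7 and 50 without control replicates 1, 2 and 3, and 2185, 202 and 100 without OX.NAC61 replicates 1, 2 and 3. For listed loci outside the 144 genes the count of 106 became 42 at adjusted p below 0.05, 16 with the slide block and 0 to 126 without an array (58, 0 and 3 for the controls, 126, 26 and 7 for OX.NAC61). Normexp on the recorded backgrounds, added after seeing the data, moved the median of all features to -0.50. The choice then held 2028 genes, 134 of them shared with the 144 and 20 co-expressed with NAC61, and limma called 0 features and 0 listed loci lower, with 3335 features at an unadjusted p under 0.05. The co-expressed count was 0 to 3 when each array was left out.

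With the replicate number as a block, limma called 385 features and 46 listed loci lower, and the median difference stayed at -1.85. Between arrays of the same number, deviations from the group means had correlations of 0.24, -0.04 and 0.21 over all detected features, so the numbers were not taken as pairs. NAC61, the named genes of the 144 and the 3 just outside the bound kept their sign under every alternative run. VIT_19s0014g03970 and the ends of 2 runs were not recomputed. In all of these 83 genes the groups did not overlap, so leaving out an array or adding a block could not have turned the sign. Only the other scalings, normexp and the deposited table could have done so. Of the 83 genes 55 moved by more than 1 SD with the scan day block and 45 in the deposited table. After normexp with marked backgrounds replaced and with recorded ones 10 and 2 moved, and 1 after quantile normalisation. Outside the 144, VIT_14s0060g01700 turned from 0.82 to -0.18 and -1.33 after normexp with replaced and recorded backgrounds, and VIT_10s0116g01090 from 4.41 to -0.69 after the latter. The causes were not tested. The 3 arrays a group and the signal of dim spots limit the precision.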
